A study of Mus musculus with 16 samples.

Results

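The piRNA pathway genes examined here are 10 mouse genes chosen by name: *Piwil2*, *Piwil4*, *Mov10l1*, *Tdrd1*, *Tdrd9*, *Mael*, *Asz1*, *Pld6*, *Spocd1* and *Tex15*, of 21883 protein-coding genes on the autosomes, X and Y. For each gene, ATAC-seq peaks were collected within its annotated bounds plus 10 kb on each side. ATAC-seq marks open chromatin by the insertion of sequencing adapters by a transposase. The cells were gonocytes, the germ cells that populate the testis before and just after birth, from male mice carrying the Mvh-Venus transgene. All groups share this transgene, which reports on germ cells. The 16 samples form 8 groups of 2: *Morc1* (+/-) (het) and *Morc1* (-/-) (knockout, KO) cells at each of E13.5, E16.5 (days of embryonic development), P0 and P3 (days after birth). The heterozygous cells, and not wild-type cells, are the reference. The labels do not say whether the 2 samples of a group came from separate animals.

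Peaks came as 1 list per group, with a position for each peak and no height, score or p-value. No value below therefore has a spread between samples, no test of stage or genotype was possible, and the read depth is unknown. The P0 lists of both genotypes were identical in all 67258 rows, and the P3 lists in all 44760. Each pair was used as 1 list with no genotype, which leaves 6 distinct lists. They held between 39559 (E13.5 KO) and 67258 (P0) peaks. Among germ-cell markers, *Ddx4*, *Dazl* and *Dnd1* had a peak within 1000 bp of an outer gene end in all 6 lists and *Dppa3* in 2. Within 500 bp of its start, *Dazl* had one in 5 lists and not in E13.5 het. Over all protein-coding genes, 52.0% had an outer-end peak in all 6 lists and 31.9% in none. Of 14 markers of Sertoli, steroidogenic, endothelial and macrophage cells, 12 had no outer-end peak in any list, while *Cyp11a1* had one in 6 lists and *Wt1* in 5. A peak list records presence, not level. What a peak at *Cyp11a1* or *Wt1* says about other cells in the samples was not tested.

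piRNAs are small RNAs that guide PIWI proteins to transposon transcripts. In male germ cells, long precursor RNAs are cut at the surface of mitochondria and loaded onto the cytoplasmic PIWI protein PIWIL2 (MILI). Cleavage of transposon RNA then feeds piRNAs to the nuclear PIWI protein PIWIL4 (MIWI2), which directs DNA methylation to transposon promoters in fetal gonocytes. Without this pathway, transposons stay active and spermatogenesis arrests. *Morc1* encodes an ATPase that also takes part in transposon silencing in these cells.

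All 10 genes had at least 1 peak in their window in all 6 lists. Within the gene bounds alone, without the flanks, 8 of 10 had a peak in E13.5 KO and 9 of 10 in each of the other 5 lists. The genes without one were *Tdrd1* in every list but P3, *Spocd1* in E13.5 KO and *Tdrd9* at P3. In those 5 lists, the peaks in the window of *Tdrd1* all lay at ends of *Ccdc186* and *Vwa2*. With flanks of 10 kb, 70.1% of all protein-coding genes had a peak in every list. By list, the share with a peak in such a window was 76.3% in E13.5 het, 76.0% in E13.5 KO, 79.5% in E16.5 het, 80.8% in E16.5 KO, 83.4% at P0 and 78.2% at P3. No share over all protein-coding genes was available for gene bounds alone, so the counts without flanks have no background here. The median number of peaks per window was 2 for the 10 genes in every list. Over all protein-coding genes it was 2 at P0 and 1 in the other 5 lists. The 10 windows were also longer, with a median of 71 kb against 37.2 kb over all protein-coding genes, so these counts are not on an equal footing.

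The windows held 24 peaks in E13.5 het, 22 in E13.5 KO, 20 in E16.5 het, 22 in E16.5 KO, 19 at P0 and 20 at P3. These counts stayed within 5 peaks of one another while the lists differed in length. As a share of its list this was 0.0593% in E13.5 het (95% Wilson interval 0.0399 to 0.0883) and 0.0282% at P0 (interval 0.0181 to 0.0441). The share of a list in the windows of all protein-coding genes was 70.0% in E13.5 het, 71.2% in E13.5 KO, 53.7% in E16.5 het, 53.3% in E16.5 KO, 47.3% at P0 and 56.8% at P3, so it was lowest at P0 as well. Wilson intervals here cover counting error over peaks only.

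**Figure D1:**
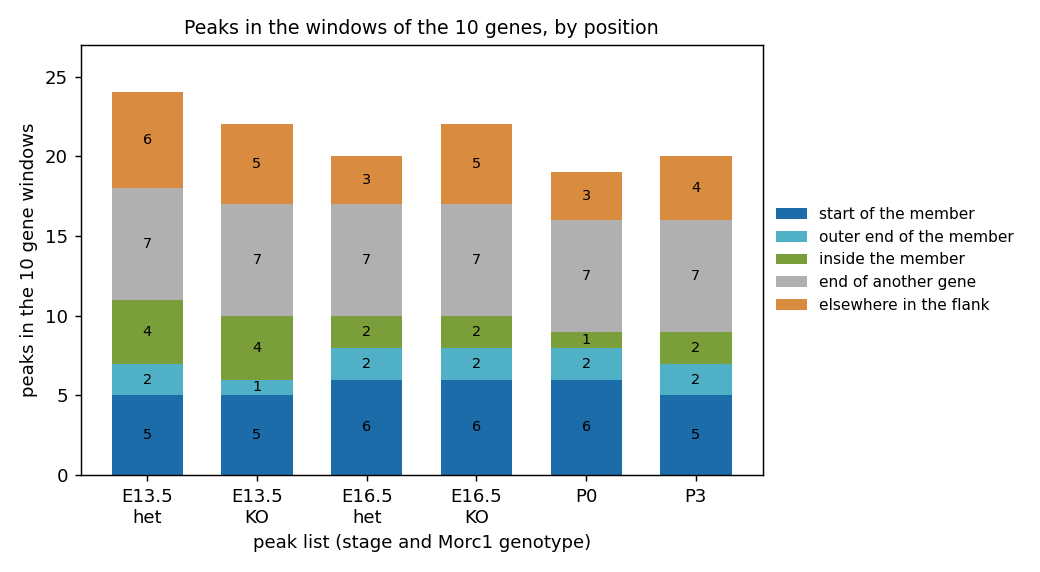
Number of peaks (y axis) in the windows of the 10 genes in each of the 6 lists (x axis), coloured by where the peak lies. Peaks at ends of other genes numbered 7 in every list, and peaks at the starts of the 10 genes numbered 5 or 6.

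Peaks that overlapped between lists were joined into 31 regions. Of these, 13 (41.9%) were held in all 6 lists, against 26.7% of the 53947 regions in windows of protein-coding genes. A further 7 (22.6%) were held in 1 list only, against 29.4%. Of the regions in all lists, 5 lay at a start of one of the 10 genes, 1 at an outer end of *Tex15*, 6 at an end of a neighbouring gene, and 1 inside *Piwil2*. By position, 13 of the 19 regions (68.4%) within 1000 bp of an end of any annotated gene or 500 bp of a start were held in all 6 lists, against 59.5% of such regions in windows of protein-coding genes. Of the 12 regions elsewhere, 0 were, against 8.23%. In windows of protein-coding genes, too, most regions held in all lists were thus at gene ends or starts.

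**Figure D2:**
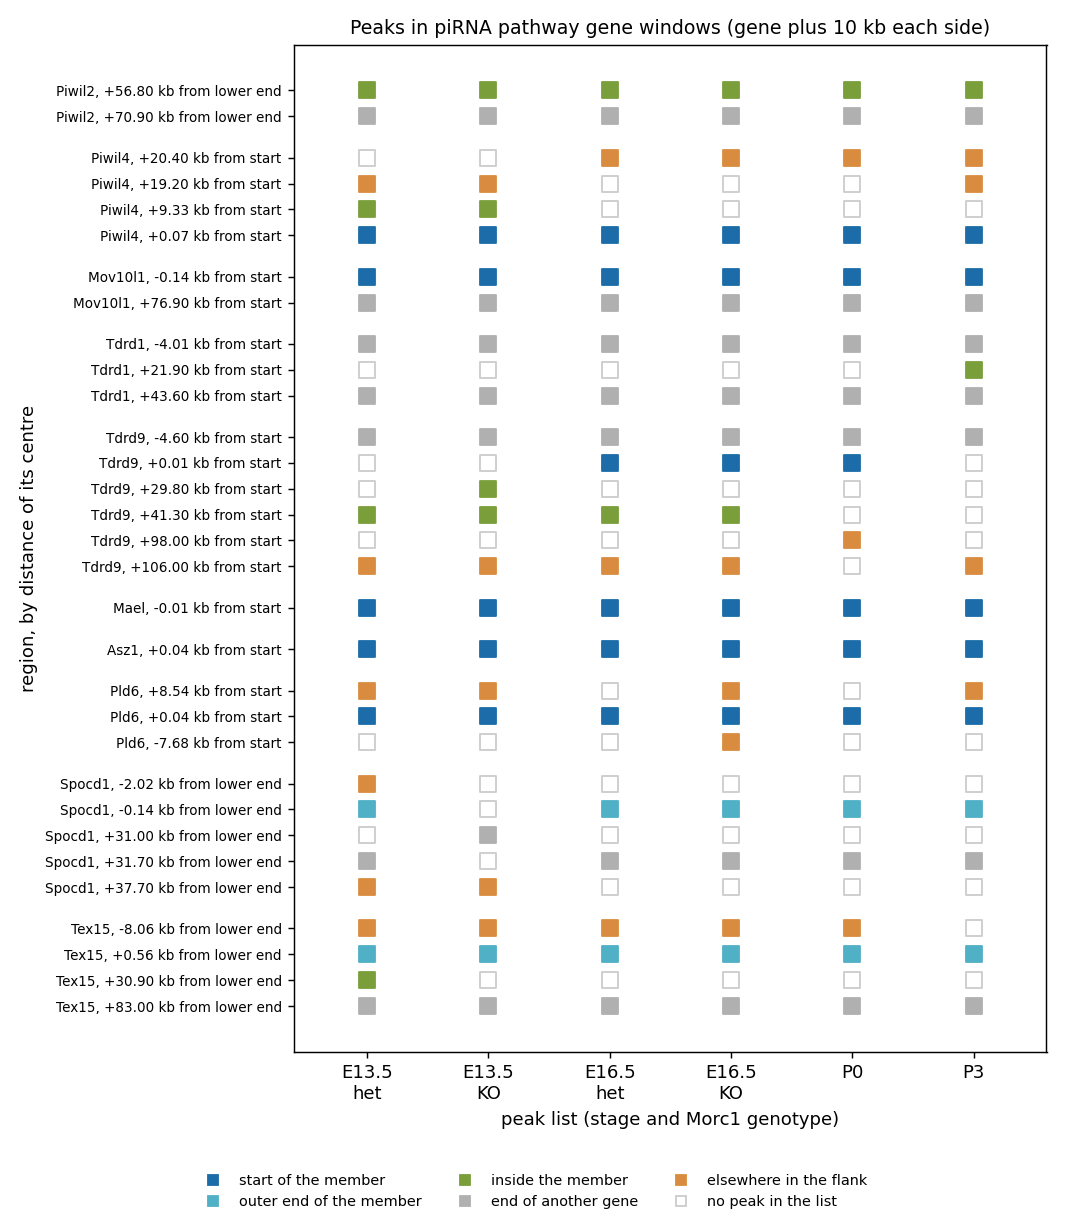
Presence (filled) or absence (open) of each of the 31 regions (y axis, by the distance of its centre from the nearest start, or from the lower outer end where no start is given) in the 6 lists (x axis). Regions at starts form solid rows of 6 except at *Tdrd9*, where E16.5 het, E16.5 KO and P0 are filled. *Tdrd1* had no start peak in any list and so has no such row.

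Transcription starts were available for 7 of the 10 genes, and a start peak is a peak within 500 bp of one. A gene counted if any of its starts had a peak. *Piwil4*, *Mov10l1*, *Mael*, *Asz1* and *Pld6* had a start peak in all 6 lists, *Tdrd9* in 3 and *Tdrd1* in 0. The start peak of *Piwil4* lay at its upstream start, and its other start had none in any list. By list, this is 5 of 7 genes in E13.5 het (58.6% of protein-coding genes with a start), 5 in E13.5 KO (59.0%), 6 in E16.5 het (59.4%), 6 in E16.5 KO (60.0%), 6 at P0 (61.3%) and 5 at P3 (58.1%). Of 17491 protein-coding genes with a start, 52.8% had a start peak in all 6 lists and 34.4% in none. *Piwil2*, *Spocd1* and *Tex15* were described by their outer ends instead, with a window of 1000 bp. By that measure *Tex15* had a peak in 6 lists, *Spocd1* in 5 and *Piwil2* in 0, against 52.0% of protein-coding genes with an outer-end peak in all 6 lists and 31.9% in none. Outer ends can miss a start inside a gene: *Tdrd7*, another piRNA pathway gene, had a start peak in 6 lists and an outer-end peak in 1. Whether *Piwil2* had a start peak is thus not known.

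Sequence before the start is shown for *Tdrd9*, whose start peak was found at some stages only, for *Tdrd1*, which had none, and for *Mael*, *Mov10l1* and *Pld6*, which had one throughout and hold the same motif. The motif is the E-box CACGTG, which reads the same on both strands and is in capitals. Sequences are from RefSeq (GRCm38.p6), 5′ to 3′ on the strand of the gene, and stop at the annotated gene boundary.
Tdrd9 (chr12:111971309-111971487, plus strand): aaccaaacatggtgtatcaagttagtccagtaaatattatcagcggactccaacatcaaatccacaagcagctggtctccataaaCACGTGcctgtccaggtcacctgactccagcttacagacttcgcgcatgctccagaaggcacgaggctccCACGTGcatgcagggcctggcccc
Tdrd1 (chr19:56825959-56826170, plus strand): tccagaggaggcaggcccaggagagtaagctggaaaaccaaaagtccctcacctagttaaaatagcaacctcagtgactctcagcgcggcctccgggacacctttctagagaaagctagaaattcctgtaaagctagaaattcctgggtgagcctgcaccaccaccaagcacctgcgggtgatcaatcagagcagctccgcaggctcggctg
Mael (chr1:166238745-166238994, minus strand): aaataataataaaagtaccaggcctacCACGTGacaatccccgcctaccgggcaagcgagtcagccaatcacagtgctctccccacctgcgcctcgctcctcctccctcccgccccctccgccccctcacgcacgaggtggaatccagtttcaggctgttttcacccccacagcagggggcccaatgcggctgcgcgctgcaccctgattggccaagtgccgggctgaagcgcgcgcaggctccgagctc
Mov10l1 (chr15:88982744-88982890, plus strand): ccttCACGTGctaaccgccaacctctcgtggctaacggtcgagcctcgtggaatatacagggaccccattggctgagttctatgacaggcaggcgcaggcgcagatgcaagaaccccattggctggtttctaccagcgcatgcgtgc
Pld6 (chr11:59787658-59787907, minus strand): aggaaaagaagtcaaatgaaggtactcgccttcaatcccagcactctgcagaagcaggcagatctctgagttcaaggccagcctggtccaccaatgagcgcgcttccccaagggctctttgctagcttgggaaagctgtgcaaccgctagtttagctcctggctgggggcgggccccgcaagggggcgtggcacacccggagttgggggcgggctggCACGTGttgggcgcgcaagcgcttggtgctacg

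The promoter window, from 250 bases before a start to 50 after it, held an E-box for 5 of the 7 genes. *Tdrd9* had a pair of them, with first letters 165 and 95 bases before the start. *Tdrd1* had one 11 bases before its first start, inside the annotated gene bounds and so not printed above. The E-box lay 246 bases before the start in *Mov10l1*, 223 in *Mael* and 33 in *Pld6*, and none was found in the windows of *Piwil4* and *Asz1*. Among 17491 protein-coding genes, 8.91% had an E-box in such a window, and among those with a start peak in all 6 lists 12.3% did. Each E-box of *Mov10l1*, *Mael* and *Pld6* lay inside the start peak of all 6 lists, and both of *Tdrd9* lay inside its start peak in the 3 lists that had one. The 501 bp start peaks cover nearly the whole search window, so this overlap follows largely from the windows used. A match of letters is a description and does not show that a factor binds there.

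The remaining motifs, searched on both strands, were closer to the background. CCAAT was found for 4 of the 7 genes (42.3% of protein-coding genes), the GC box GGGCGG for 4 (49.2%), the MYB core AACTG for 3 (45.3%) and GCGGGAA, an E2F6-type motif, for 0 (6.84%).

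CpG dinucleotides, the sites of DNA methylation, are frequent at starts that are open in most tissues. The 300-base window held 24 CpG for *Mael*, 20 for *Mov10l1*, 17 for *Asz1* and 11 for the upstream start of *Piwil4*, with 0 at its other start. *Pld6* held 18 at its upstream start and 25 at its other start. *Tdrd9* held 10. The median was 21 for promoters of protein-coding genes with a start peak in all 6 lists and 3 for those of genes with none. It was 6 for the 132 promoters of genes with one at P0 and in the E16.5 lists only. Genes were classed as a whole, so a promoter in a class need not itself have the peak. *Tdrd1*, with no start peak, held 20, 25 and 3 at its 3 starts. The first 2 were thus near the median for promoters of genes with a start peak in every list.

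**Figure D3:**
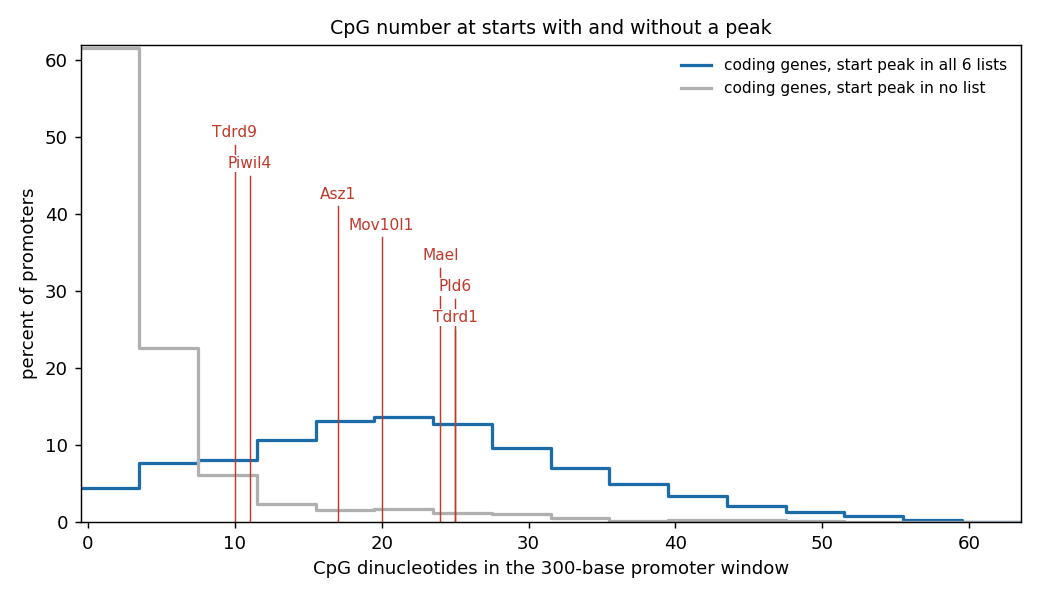
Percent of promoter windows (y axis) by number of CpG dinucleotides in 300 bases (x axis, in bins of 4) for protein-coding genes with a start peak in all 6 lists (blue) or in none (grey), with red lines for 7 of the piRNA pathway genes at their window with the most CpG. *Tdrd9* (10) and *Piwil4* (11) lie lowest, and *Tdrd1*, with no start peak, lies at 25.

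The PIWI proteins come first. *Piwil4* (gene ID 330890, chr9:14701776-14740672) had a start peak centred downstream of its start in every list, by 104 bp in E13.5 het, 70 in E13.5 KO, 36 in E16.5 het, 30 in E16.5 KO, 25 at P0 and 41 at P3. The E13.5 centres were the farthest from the start, and shifts of this size are small beside the peak width of 501 bp. The other regions of *Piwil4* differed between stages and, at E13.5 and E16.5, not between the het and KO lists. A region inside the gene, 9.33 kb from the start (chr9:14731047-14731645), was held by both E13.5 lists and by no other. It lies within 1000 bp of an end of the long noncoding RNA gene *Gm34651*. Beyond the other end of the gene, chr9:14698853-14699427 was held by both E13.5 lists and by P3, and chr9:14697633-14698250 by both E16.5 lists, P0 and P3. These flank regions lie next to each other, and P3 was the only list that held both.

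*Piwil2* (gene ID 57746, chr14:70372477-70436898) had no peak within 1000 bp of either outer end. Its nearest peak to the lower end was at least 20816 bp away in every list. Its nearest peak to the upper end lay 6218 to 6314 bp away, and that peak is at an end of the neighbouring *Polr3d*, which encodes a subunit of RNA polymerase III. A region inside the gene, chr14:70429055-70429587, was held by all 6 lists, with centres within 32 bp of one another. It lies 7.58 kb inside the upper end, near the small nuclear RNA gene *Gm24890*. Neither exons nor a start of *Piwil2* were available here, so this region could not be placed in an exon or intron or at a start.

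*Mov10l1*, *Asz1* and *Pld6* act in the making of piRNAs. MOV10L1 is an RNA helicase that binds piRNA precursors, PLD6 (MitoPLD) is a mitochondrial nuclease that cuts them, and ASZ1 (GASZ) is anchored to mitochondria. *Mov10l1* (gene ID 83456, chr15:88982891-89055152) had its start peak centred upstream of the start, by between 111 bp (E16.5 KO) and 168 bp (P3). Measured this way, it was the only one of the 6 genes with a start peak whose centres all lay more than 100 bp upstream. The start used (88982994) lies inside the gene bounds. From the lower end of the gene the centres lay at -8 bp (E16.5 KO) to -65 bp (P3), so the distance depends on the start chosen. The same peak lies within 1000 bp of an outer end of *Mlc1*, the next gene. Its other region, at an end of *Panx2*, was held by all lists only as a chain of overlapping peaks whose centres spread over 707 bp, and the P0 and P3 peaks there did not overlap each other.

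*Asz1* (gene ID 74068, chr6:18050964-18109061) had its start peak as the only peak of its window in every list, centred 1 bp (E13.5 KO) to 74 bp (E13.5 het) downstream of the start. *Pld6* (gene ID 194908, chr11:59783893-59787657), with 3765 bp the shortest of the 10 genes, had a start peak centred from 9 bp upstream (E16.5 KO) to 94 bp downstream (E13.5 het). It also held 2 flank regions. The region at chr11:59778410-59778947 was held by both E13.5 lists, E16.5 KO and P3, and not by E16.5 het or P0. The region at chr11:59795083-59795583 was held by E16.5 KO only.

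**Figure D4:**
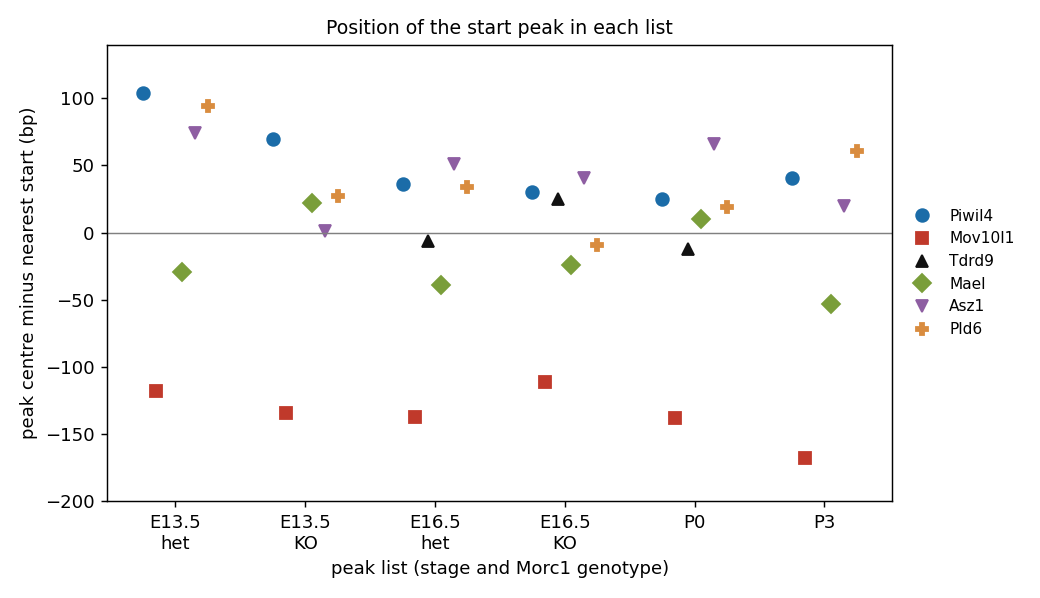
Distance in bp of the centre of the start peak from the nearest start (y axis, positive is downstream) for 6 genes in the 6 lists (x axis). Each point is 1 peak. *Mov10l1* lies lowest in every list, between -168 and -111, and *Tdrd9* has points at E16.5 and P0 only.

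*Tdrd1*, *Tdrd9* and *Mael* encode partners of the PIWI proteins in cytoplasmic granules, which need not be the same for each: TDRD1 is a Tudor-domain scaffold that binds MILI, TDRD9 is a Tudor-domain helicase found with MIWI2, and MAEL is also found in such granules. *Tdrd9* (gene ID 74691, chr12:111971488-112068854) was the only one of the 7 genes whose start peak was held in some lists and not in others. The peak lay at chr12:111971303-111971803 in E16.5 het, chr12:111971334-111971834 in E16.5 KO and chr12:111971297-111971797 at P0, with its centre within 25 bp of the start. In E13.5 het, E13.5 KO and P3 the nearest peak was 4358, 4352 and 4342 bp away, at an end of the neighbouring *Atp5mpl*, which encodes a mitochondrial protein. At E13.5 and at E16.5 the het and KO lists did not differ in this, and the pattern was the same with start windows of 250 and 1000 bp. Of protein-coding genes with a start, 0.526% (92 genes) shared it, and 0.480% and 0.577% with the narrower and the wider window. A start peak in some lists and not in others, whatever the pattern, was found for 2232 of 17491 such genes.

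Inside *Tdrd9*, a region 41.3 kb from the start (chr12:112012604-112013203) was held by all 4 embryonic lists and by neither P0 nor P3. A second region inside the gene (chr12:112001128-112001628) was held by E13.5 KO only. A flank region at chr12:112077490-112078075 was held by every list but P0, and one at chr12:112069358-112069858 by P0 only. The start and the interior of *Tdrd9* thus differed in the stages at which they were held.

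*Tdrd1* (gene ID 83561, chr19:56826171-56870012) had no peak within 1000 bp of any of its 3 starts in any list. The nearest peak to a start was 3733 to 3779 bp away, at an end of the neighbouring *Ccdc186*. Its other region in all 6 lists lay at an end of *Vwa2*. The only peak inside *Tdrd1* was at chr19:56852330-56852830, in the P3 list. *Mael* (gene ID 98558, chr1:166201385-166238744) had only its start peak, in all 6 lists, centred from 53 bp upstream (P3) to 22 bp downstream (E13.5 KO).

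SPOCD1 and TEX15 are nuclear proteins that act with MIWI2 in the methylation of transposons. *Spocd1* (gene ID 622480, chr4:129928767-129957115) had a peak across its lower outer end in 5 lists. The peak lay at chr4:129928362-129928862 in E13.5 het, chr4:129928400-129928900 in E16.5 het, chr4:129928384-129928884 in E16.5 KO, chr4:129928392-129928892 at P0 and chr4:129928400-129928900 at P3. It was missing from E13.5 KO, where the nearest peak to this end was 30762 bp away. An outer-end peak in every list but E13.5 KO was found for 0.507% of protein-coding genes. A second region of *Spocd1*, at an end of the long noncoding RNA gene *1700003M07Rik* (chr4:129960206-129960789), was likewise held by every list but E13.5 KO, as were 1.01% of regions in windows of protein-coding genes. There the E13.5 KO list held a peak at chr4:129959529-129960029, which ended 259 bp from the E13.5 het peak. A further region, chr4:129966203-129966744, was held by both E13.5 lists only, and chr4:129926494-129926994 by E13.5 het only. Each of these genotype differences rests on 1 peak in 1 list.

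*Tex15* (gene ID 104271, chr8:33516689-33592503) had a peak near its lower outer end in all 6 lists, 292 to 330 bp inside the gene. A flank region 8.06 kb beyond that end (chr8:33508344-33508920) was held by all lists but P3. A region inside the gene (chr8:33547351-33547851) was held by E13.5 het only. The remaining region, in all 6 lists, lay at an end of *Ppp2cb*, which encodes a catalytic subunit of protein phosphatase 2A.

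To ask whether loss of *Morc1* went with a difference in accessibility at these genes, the genotypes were compared at E13.5 and E16.5. At E13.5, 4 of 24 het peaks (16.7%, interval 6.68 to 35.9) lacked a counterpart in the KO list, and 2 of 22 KO peaks (9.09%, interval 2.53 to 27.8) lacked one in the het list. Over peaks in windows of all protein-coding genes these shares were 17.1% and 16.7%, inside both intervals. Of the 6 peaks, 4 belonged to *Spocd1*, 1 to *Tex15* and 1 to *Tdrd9*. Where peaks within 500 bp counted as overlapping, the neighbouring *Spocd1* pair dropped out, which left 3 het-only peaks and 1 KO-only peak. No share over all protein-coding windows was available under that rule.

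At E16.5, 0 of 20 het peaks had no KO counterpart (interval 0 to 16.1), against 14.8% over all protein-coding windows. Of 22 KO peaks, 2 (9.09%, interval 2.53 to 27.8) had no het counterpart, against 19.4%. Both background shares lay inside the intervals here too. Both peaks were in the flanks of *Pld6*. Presence of a peak at the start or an outer end differed between the het and KO lists for 1 of the 10 genes at E13.5, *Spocd1*, and for 0 of 10 at E16.5. Among protein-coding genes, an outer-end peak was present in 1 genotype only for 3.66% at E13.5 and 4.82% at E16.5. Start peaks of the 7 genes with a known start did not differ between genotypes at either stage, where 2.76% and 3.96% of protein-coding genes did. Whether any of these differences exceeds that between samples of 1 genotype could not be measured.

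Across stages, 18 of 24 E13.5 het peaks (75%, interval 55.1 to 88) were found in E16.5 het, and 17 of 22 E13.5 KO peaks (77.3%, interval 56.6 to 89.9) in E16.5 KO. In windows of all protein-coding genes the shares were 62.7% and 65.5%. Of the E16.5 peaks, 17 of 20 in het cells (85%, against 79.2%) and 18 of 22 in KO cells (81.8%, against 77.9%) were found at P0. From P0 to P3 the share was 15 of 19 (78.9%, interval 56.7 to 91.5), against 67.3%. All 5 background shares lay inside the intervals.

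By region, 3 of 31 were in both E13.5 lists and neither E16.5 list (9.68%, against 10.4% of regions in protein-coding windows): 2 in *Piwil4* and 1 in *Spocd1*. Another 2 were in neither E13.5 list and both E16.5 lists (6.45%, against 12.3%): the *Tdrd9* start and the *Piwil4* flank. After birth, 3 regions were at P0 and not at P3 (9.68%, against 19.0%), namely the *Tdrd9* start, a *Tdrd9* flank region and the *Tex15* flank region. The reverse held for 4 (12.9%, against 7.17%), namely 1 flank region each of *Piwil4*, *Tdrd9* and *Pld6* and the peak inside *Tdrd1*.

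The same measures were taken for 17 other piRNA pathway genes. Starts were available for 12 of them, of which 9 had a start peak in all 6 lists, against 52.8% of protein-coding genes: *Ddx4*, *Tdrd5*, *Tdrd7*, *Tdrd12*, *Tdrkh*, *Henmt1*, *Exd1*, *Btbd18* and *Prmt5*. None of the 12 lacked one in every list. The other 3 had one in some lists only, as did 2232 of the 17491 protein-coding genes with a start. *Gtsf1*, which encodes a small zinc-finger partner of PIWI proteins, and *Piwil1*, the PIWI gene of later spermatogenesis, had a start peak at P0, at P3 and in both E16.5 lists but in neither E13.5 list, a pattern found for 1.11% of protein-coding genes. *Fkbp6*, a chaperone cofactor, had one in E13.5 het, both E16.5 lists and P0, and so not in E13.5 KO or P3, a pattern found for 0.120%. *Tdrd9* shared with *Gtsf1* and *Piwil1* the absence at E13.5 and the presence at E16.5 in both genotypes, which held for 1.96% of protein-coding genes, and differed from them at P3. Of the 5 genes without a listed start, *Pnldc1*, *Rnf17*, *Mybl1* and *Hsp90aa1* had an outer-end peak in all 6 lists and *Tdrd6* in 0. Among protein-coding genes these shares were 52.0% and 31.9%. *Tdrd7*, with a start peak in all 6 lists, had an outer-end peak in 1, so an outer-end count of 0 can miss a start. An E-box was found in the promoter windows of 3 of the 12 genes, *Piwil1*, *Ddx4* and *Fkbp6*, against 8.91% of protein-coding genes.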

How the data were processed

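The authors deposited 8 ATAC-seq peak lists, 1 per stage and genotype, each with a chromosome, start and end per peak. Per the file contents, nearly all peaks are 501 bp wide. The submitters' processing notes name the build mm10 and bcl2fastq 2.20, cutadapt 1.18, Bowtie2 2.3.4.1, deepTools 3.5.0 and HOMER 4.10, without role. The peak threshold, duplicate handling and pooling of samples are not given in the sources used here. Fixed-width peaks keep position and discard breadth, and list length depends on depth and threshold.

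Gene bounds came from a RefSeq table (GRCm38.p6), and starts from its promoter table, which matched 7 of the 10 genes; *Piwil2*, *Spocd1* and *Tex15* were not matched. As a check of the build, 58.1% to 61.3% of genes had a peak within 500 bp of a start, against 3.63% to 5.25% with starts moved by 10 kb. Lists were joined at 1 bp of overlap. All 10 genes are named. Single regions are named by a rule: at a start, in 1 genotype of a stage, or in all lists; other regions named here were chosen after their values were seen. The members and lists were chosen with earlier results of these data known. Alternatives were flanks of 0, 5 and 25 kb, a reciprocal overlap of 50%, peaks within 500 bp, peak centres, and other start and end windows. Computations used Python 3.11.15, pandas 2.3.3, NumPy 2.4.6 and SciPy 1.17.1. Overlaps were tested on simulated data and checked against bedtools 2.31.1 in 8 comparisons, with equal counts.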

Additional observations from a re-analysis of the deposited data

How the results depend on the processing

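No paired analysis was possible because the lists hold no values for separate samples, and leaving out replicates was not possible for the same reason. Stricter thresholds and lists of equal length were not run, since peaks carry no score. Of 113 recomputed values, 104 stayed within the interval of the reported value or, for counts, within 1.5 times, and 9 moved. These intervals are wide, so staying inside says little. With gene bounds alone, the share of each list in the 10 genes became 0.0272% (E13.5 het), 0.0253% (E13.5 KO), 0.0186% (E16.5 het), 0.0175% (E16.5 KO), 0.0134% (P0) and 0.0201% (P3), since fewer bases were searched, and a peak was found for 8 of the 10 genes in E13.5 KO and 9 in each other list. For the same reason the E16.5 KO-only share became 0% (0 of 10 peaks). With flanks of 25 kb the E13.5 KO share of the list became 0.091%. KO-only peaks at E13.5 (7 of 36, 19.4%) then outnumbered het-only peaks (5 of 34, 14.7%), the reverse of the order with 10 kb. At E16.5, het-only peaks became 2 of 29 (6.9%) and KO-only peaks 3 of 30 (10%). For gene bounds alone and for flanks of 25 kb, no shares over all protein-coding genes or their windows were available. With an outer-end window of 250 bp *Tex15* had a peak in 0 lists, as its peak lies 292 bp or more from the end. A window of 500 bp, added after seeing the data, changed none of the outer-end counts of *Piwil2*, *Spocd1* and *Tex15*.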

Other observations

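Over all protein-coding genes, the E-box share differed between starts with and without a peak. It was 12.3% of 9240 genes with a start peak in all 6 lists and 3.59% of 6019 genes with none. Among the 92 genes of the *Tdrd9* class, with a start peak at P0 and in the E16.5 lists only, it was 15.2%. The MYB core AACTG was found for 40.4%, 51.6% and 50% of these classes. The classes differ in CpG number, with medians of 21, 3 and 6 per promoter window, and the E-box itself contains a CpG, so the part of base composition in these shares was not tested.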
